A study of Drosophila melanogaster with 4 samples.

Results

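The Antennapedia complex is a cluster of homeobox genes on the right arm of chromosome 3 (3R) of Drosophila melanogaster. It was examined here as the window 3R:2480000-2880000 in Release 5 of the fly genome, which is the build whose sequence names and lengths the file headers give. Its 6 member genes are lab, pb, Dfd, Scr, ftz and Antp, in this order of rising coordinate. All regions enriched for trimethylation of histone H3 at lysine 27 (H3K27me3) that overlap the window by at least 1 bp were taken. They numbered 16 of 1486 regions in replicate 1, 18 of 1459 in replicate 2 and 15 of 2279 in a list deposited for the series as a whole, called the series list here. The window was set by position and not by any score. The members, limits and tests were nevertheless chosen with earlier results of these data known.

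The study profiled H3K27me3 by chromatin immunoprecipitation and sequencing (ChIP-seq) in whole embryos of the wild-type strain Oregon-R, 14 to 16 h old. The 2 ChIP libraries, replicates 1 and 2, each have a matching input library of the same strain and stage, and no sample carries a mutation or treatment. The regions are the authors' calls, each with a start, an end and 1 score. The sources used here give neither the scale of that score nor the caller and its threshold. The scores are the authors' own values and are used mainly to describe and rank regions within a list. Where scores of the 2 replicates are averaged or compared, a common scale is assumed and was not tested. Read depth is unknown, and a stretch with no call is one that did not meet whatever criteria the authors set. The narrowest region was 1301 bp wide in each replicate list and 1001 bp wide in the series list. Whether narrower pieces were enriched can therefore not be told. The embryos are a mixture of all their cells, so the share of cells that carry the mark at a place and its level per cell cannot be told apart.

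H3K27me3 is written by Polycomb repressive complex 2 and is bound by Polycomb repressive complex 1. Together they keep genes silent in the cells where early regulators have left them off. The Hox genes are the classic targets of this system in the fly. They encode homeodomain transcription factors that give segments their identity along the head-to-tail axis, each is on in some segments only, and their order on the chromosome follows the order of those segments.

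The members act from the head backwards. The gene lab works in the most anterior head segments and in the midgut, pb shapes the adult mouthparts, and Dfd specifies the mandibular and maxillary segments. Scr specifies the labial segment and the first thoracic segment, and it is needed for the salivary glands and the sex combs of the male leg. The gene ftz is a pair-rule segmentation gene that sits among the Hox genes but has no homeotic role in the fly. Antp, the longest of the members, specifies thoracic identity and is known for the mutants that grow legs in place of antennae. In the RefSeq gene table of Release 6, which was used for gene order alone, all 6 members were found in the stated order, with 37 other genes between lab and Antp. Of these, 8 protein-coding genes lie between lab and pb, namely Edg84A and 7 of the Ccp84A group, which encode cuticle proteins. Between pb and Dfd lie zen2, zen, bcd, Ama and CG34297. Of these, zen is needed in dorsal tissue of the early embryo, bcd encodes the maternal morphogen of the head end, and Ama encodes an immunoglobulin-domain protein. Between Dfd and Scr there is no protein-coding gene, but there are 4 tRNA genes and mir-10, and only long non-coding RNA genes separate Scr from ftz and ftz from Antp. Gene coordinates in the build of the region files were not used here, so no gene is tied to a single region below.

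Nearly the whole complex was called as enriched for H3K27me3. The regions covered 364 kb of the window in replicate 1 and 369 kb in replicate 2, which is 91.7% ± 0.89 (SD, n = 2) of its length. The background over the 6 major arms (2L, 2R, 3L, 3R, X and 4) was 11.9% of all bases in replicate 1 and 12.3% in replicate 2, and over the whole of 3R it was 12.64% and 12.99%. The series list covered 94.7% of the window, against 14.7% of the major arms. The arms were also cut into 296 other windows of the same 400 kb length, laid end to end from the start of each arm. In replicate 1 the median of these windows was 6.49% and the highest 79.9%, and in replicate 2 the median was 7.39% and the highest 79.8%, so 0% of them reached the share of the Antennapedia window in either list. The window was placed around the complex while the other windows were not placed around any domain, so this comparison is a description. When the window was divided into 40 bins of 10 kb, 29 were called over their full length in both replicates and no bin was without a call in both.

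Most of this sequence lay in 5 broad regions, meaning regions of at least 10 kb. Each list had 5 such regions in the window, of 16 regions in replicate 1, 18 in replicate 2 and 15 in the series list, where the background share of broad regions is 20.2%, 21.3% and 14.6%. They held 92.0% of the called bases of the window in replicate 1 and 90.9% in replicate 2. The remaining regions, 11 in replicate 1 and 13 in replicate 2, were 1341 to 5830 bp and 1334 to 6662 bp wide.

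**Figure D1:**
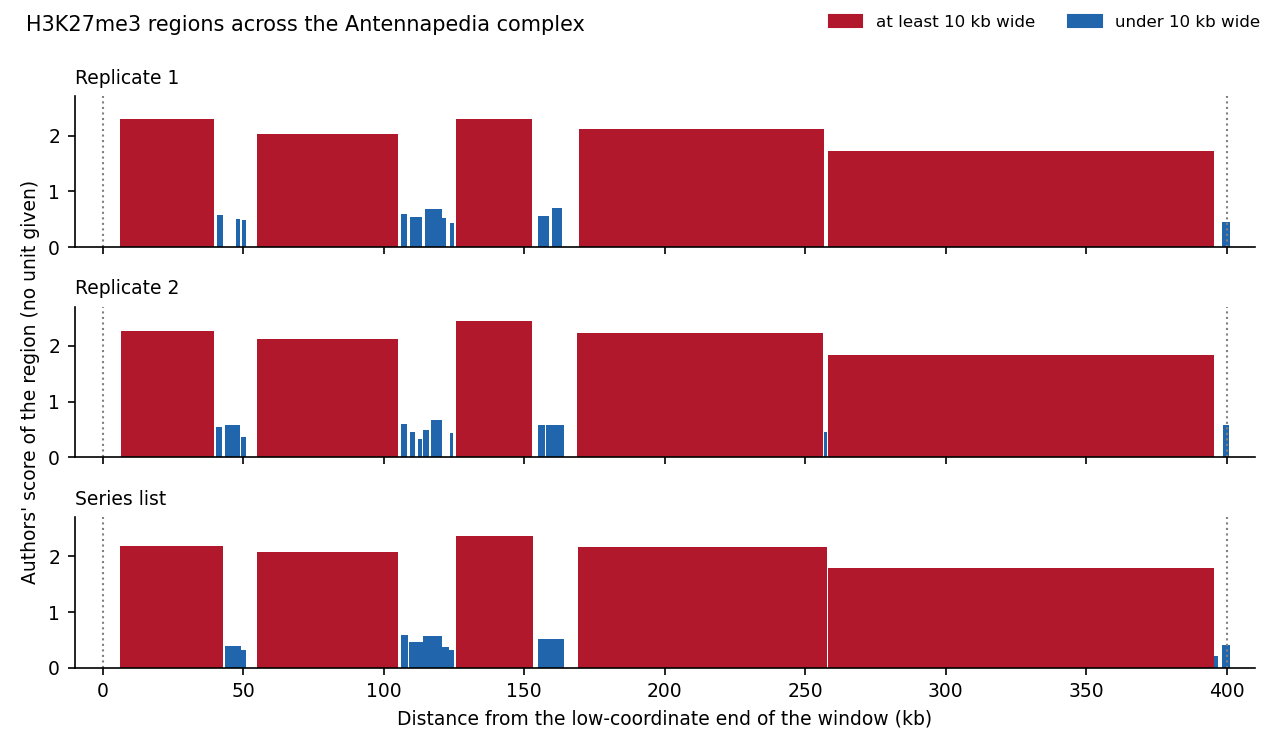
Position, width and score of every region of the window in replicate 1, replicate 2 and the series list. The x axis is the distance in kb from the low-coordinate end of the window, bar height is the authors' score with no unit given, red bars are regions of at least 10 kb, blue bars are shorter regions, and dotted lines mark the window. The same 5 tall blocks appear in all 3 lists, with low and short regions in the stretches between them.

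The first broad region, at the lab end of the complex, ran from 2486197 to 2519640 (33.4 kb, score 2.30) in replicate 1 and from 2486404 to 2519745 (33.3 kb, score 2.28) in replicate 2. The second ran from 2535035 to 2585084 (50.0 kb, score 2.03) in replicate 1 and from 2534939 to 2585097 (50.2 kb, score 2.13) in replicate 2. The third was the shortest of the 5 and ran from 2605609 to 2632911 (27.3 kb, score 2.30) in replicate 1 and from 2605580 to 2632941 (27.4 kb, score 2.44) in replicate 2. These 3 blocks thus lay at nearly the same place in both libraries. The fourth ran from 2649530 to 2736524 (87.0 kb, score 2.13) in replicate 1 and from 2648955 to 2736481 (87.5 kb, score 2.24) in replicate 2. The fifth, at the Antp end, ran from 2738101 to 2875488 (137.4 kb, score 1.73) in replicate 1 and from 2738213 to 2875472 (137.3 kb, score 1.84) in replicate 2. By width it ranked 8 of 1486 regions in replicate 1 and 9 of 1459 in replicate 2. The blocks therefore widened towards the Antp end, with the third as the exception.

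The ends of the broad regions were placed closely by the replicates. Over the 5 pairs, the median distance between matching ends was 69.5 bp for 10 ends, with a range of 13 to 575 bp, and the largest difference was at the start of the fourth region. Of these ends, 8 of 10 (80.0%) differed by at most 200 bp. Among 189 broad pairs of the major arms that matched one to one, the median was 94.5 bp and 72.5% of ends differed by at most 200 bp. The median in the complex was thus of the same order as that of broad regions elsewhere, and the difference was not tested. The fourth pair is outside the one-to-one set because its replicate 1 region met 2 regions of replicate 2.

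By score the 5 broad regions did not stand out among broad regions of the genome, although all lay in the upper part of their lists. In replicate 1 they ranked between 64 and 131 of 300 broad regions by score, and in replicate 2 between 48 and 121 of 311. Broad regions that scored at or above the lowest of the 5 made up 43.7% of all broad regions in replicate 1 and 38.9% in replicate 2. The score of the called sequence, weighted by bases, was 1.87 in the window against 1.61 over all regions of replicate 1, and 1.94 against 1.61 in replicate 2. Regions of at least 25 kb had a median score of 2.03 in replicate 1 and 2.04 in replicate 2, so the 5 blocks fell on either side of the usual score for their width.

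The widest block had the lowest score. The fifth region averaged 1.78 ± 0.075 (SD, n = 2), below each of the other 4 in both replicates. The second averaged 2.08 ± 0.068 (SD, n = 2) and the fourth 2.18 ± 0.081 (SD, n = 2), and the fourth lay above the second within each replicate, although the replicate 2 value of the second just exceeded the replicate 1 value of the fourth. The first averaged 2.29 ± 0.020 (SD, n = 2) and lay above the fourth in both replicates. The third averaged 2.37 ± 0.099 (SD, n = 2), and its order relative to the first differed by replicate, with a gap in replicate 1 that is not visible at 2 decimals. Of the 22 regions of at least 100 kb in replicate 1, with a median score of 2.07, 4 scored below the fifth region, and of the 23 in replicate 2, with a median of 2.05, 5 did. Replicate 2 gave the higher score for 4 of the 5 broad regions, where the background among the 189 broad pairs of the major arms is 53.4%. With 5 regions this cannot be read as a trait of the complex. The median difference, replicate 2 minus replicate 1, was 0.11 in the complex and 0.0088 among those pairs.

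**Figure D2:**
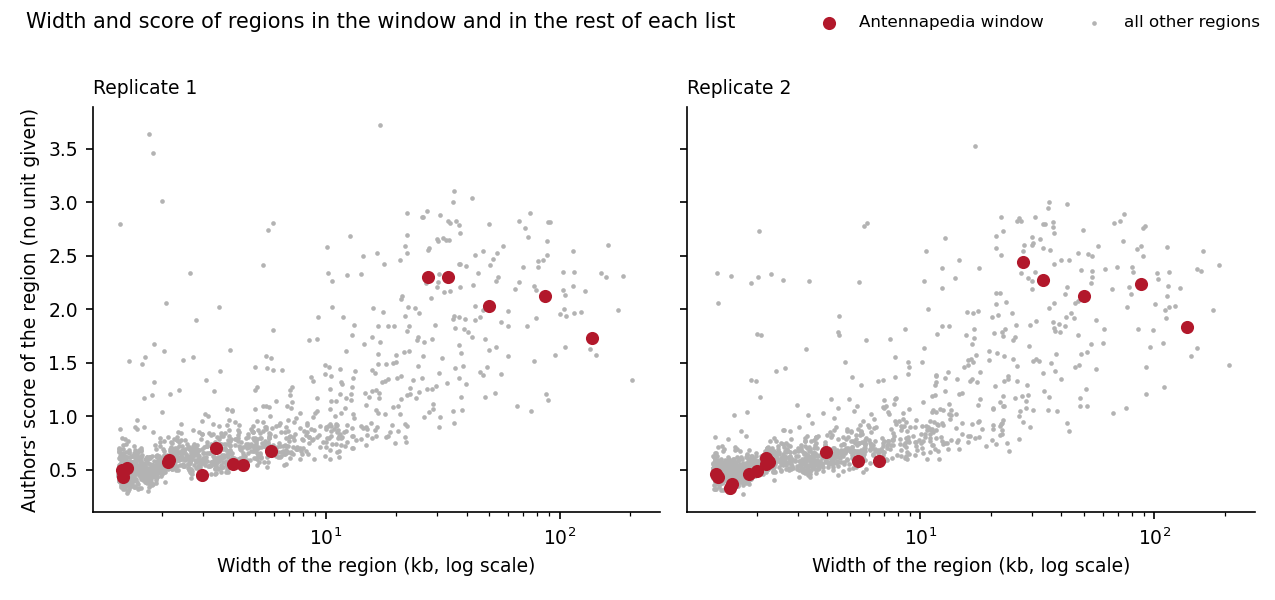
Score against width (kb, log scale) for every region of replicate 1 and replicate 2, with regions of the Antennapedia window in red and all other regions in grey. The window's regions form 2 separate groups, the 5 broad ones with scores above 1.7 and the shorter ones with scores of at most 0.70, and both groups lie within the spread of the grey points.

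The shorter regions of the complex formed a separate class with low scores. They scored 0.43 to 0.70 in replicate 1, with a median of 0.54, and 0.33 to 0.67 in replicate 2, with a median of 0.55. All regions under 10 kb had medians of 0.57 and 0.55, so those in the complex were ordinary for their width. No shorter region of the window came near the lowest broad score, 1.73 in replicate 1 and 1.84 in replicate 2. Elsewhere such short regions were also rare, since 1.10% of the regions under 10 kb in replicate 1 and 1.13% in replicate 2 scored that high.

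Of the shorter regions, 10 of 11 in replicate 1 overlapped a region of replicate 2, where the background for regions under 10 kb is 76.6%. In replicate 2, 13 of 13 overlapped replicate 1, where it is 68.8%, but only 12 of them met a shorter region there. The other, from 2736518 to 2737851, met only the end of the fourth broad region, with 0.007 kb shared. The rest of it was uncalled in replicate 1. Counting the broad regions too, it was 15 of 16 in replicate 1 (background 81.3%) and 18 of 18 in replicate 2 (background 75.5%). The exception was a replicate 1 region of 1410 bp (2600768 to 2602177, score 0.52), whose sequence is called in the series list. In bases, 360 kb were called in both replicates and 374 kb in either, a shared fraction of 96.2%, against 86.5% over the major arms. The window was called over 91.1% in replicate 1 and 92.3% in replicate 2, so the lists had to share most of it. The arms have no such coverage, and their 86.5% is not a like background. Short regions, too, lay mostly in stretches that the other replicate called in part, which makes an overlap likely beforehand. Replicate 1 alone called 4.57 kb and replicate 2 alone 9.62 kb. All 5 broad regions of each replicate met the other replicate, as did every broad region of both lists (background 100%).

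Of the 14.2 kb of the window called in 1 replicate only, 13.6 kb (95.9%) lay in the 4 stretches between the broad regions, and the remainder lay mainly at the outer ends of the complex. The first 3 stretches held short regions in every list. The stretch between the first and the second broad region, 15.4 kb long in replicate 1 and 15.2 kb in replicate 2, was called over 31.3% in replicate 1 and 60.5% in replicate 2, each with 3 short regions. Most of that gap came from 1 fragment, which ran from 2527508 to 2528848 (1341 bp, score 0.50) in replicate 1 and from 2523586 to 2529014 (5429 bp, score 0.58) in replicate 2. The last 4.0 kb of this stretch, from 2530947 to 2534911 (3965 bp), had no call in any of the 3 lists.

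The stretch between the second and the third broad region was the longest, 20.5 kb, and the most filled in replicate 1. It held 5 short regions over 73.9% of its length in replicate 1 and 6 over 62.9% in replicate 2, with scores of 0.43 to 0.68 and 0.33 to 0.67. The highest-scoring fragment of the stretch ran from 2594735 to 2600564 (score 0.68) in replicate 1 and from 2596673 to 2600630 (score 0.67) in replicate 2. No uncalled piece of this stretch was longer than 1301 bp in replicate 1 or 2793 bp in replicate 2.

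The stretch between the third and the fourth broad region, 16.6 kb long in replicate 1 and 16.0 kb in replicate 2, held 2 short regions in each. They covered 44.6% of it in replicate 1 and 55.6% in replicate 2, and lay on the side of the third region. The rest, next to the fourth region, held the longest piece of the complex without a call in any list, 4646 bp from 2644309 to 2648954. Between the fourth and the fifth broad region the break was short, 1576 bp from 2736525 to 2738100 in replicate 1. Replicate 2 called 84.2% of that break, all of it through a separate region of 1334 bp (2736518 to 2737851, score 0.46) that filled 77.1% of its own interval between the fourth and the fifth region, and the series list joined that piece to the fourth region. This region was close to the narrowest width in the replicate 2 list, 1301 bp.

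**Figure D3:**
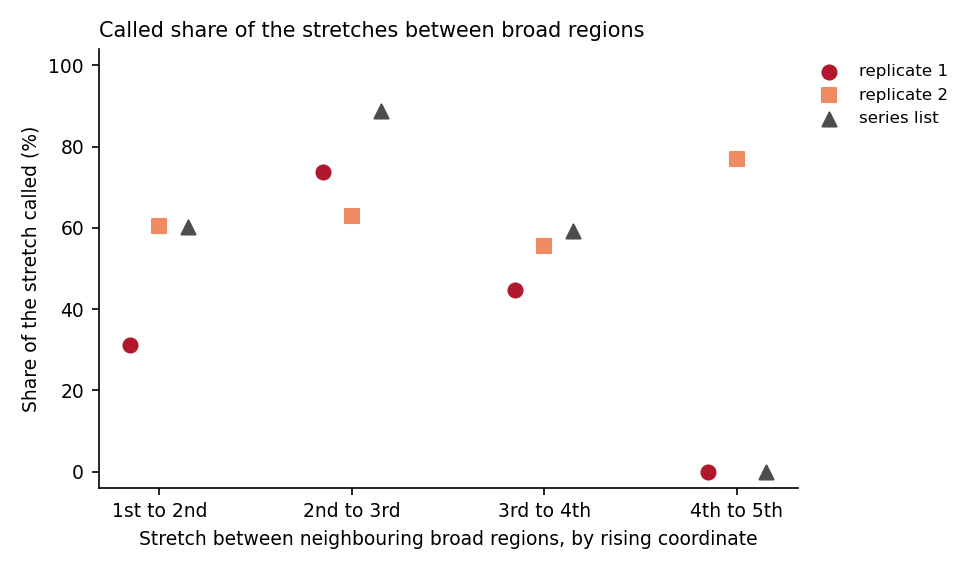
Share called (%) of each of the 4 stretches between neighbouring broad regions, each list measured between its own broad regions, for replicate 1 (circles), replicate 2 (squares) and the series list (triangles), with 1 value per list and no error bars. The replicates lie closest in the middle pair of stretches, at 73.9% and 62.9% and at 44.6% and 55.6%, and farthest apart in the last, at 0% and 77.1%.

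Breaks, the uncalled stretches between neighbouring regions, numbered 15 in replicate 1 and 17 in replicate 2 and summed to 29.5 kb and 24.2 kb. Their median lengths were 1080 bp and 972 bp, and the longest were 6136 bp and 4646 bp. Of the replicate 1 breaks, 14 of 15 overlapped a break of replicate 2, where the background for breaks under 10 kb on the major arms is 73.6%. Of the replicate 2 breaks, 13 of 17 overlapped a break of replicate 1, where the background is 85.6%, and the other 4 lay wholly inside a called region of replicate 1. The complex therefore lay above the background in one direction and below it in the other. The arms are called far less densely than the window, so this background may not be a like one. When regions under 1 kb apart were merged, 7 of 11 replicate 1 breaks overlapped a break of replicate 2, so the first result depends on the setting. Pieces without a call in any list numbered 14 and summed to 15.1 kb, from 34 to 4646 bp each. Whether reads can be placed in these pieces was not tested.

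The series list drew the complex with fewer and longer regions. Of its 15 regions, 13 overlapped both replicates, where the background is 37.0%. A further 1 overlapped replicate 1 alone, and 1 overlapped neither, where the background is 40.7%. The replicates called 91.1% and 92.3% of the window, so most regions placed there would meet both beforehand. The shares over the whole list are therefore not a like background. How the series list was made is not stated, so it may not be independent of the replicates. The region that overlapped neither was 1420 bp wide (2875604 to 2877023) and lay just past the fifth broad region, and its score of 0.20 ranks 2259 of 2279 in that list. Of the bases of the series list in the window, 95.0% were called in both replicates and 1.27% in neither. Its 5 broad regions scored 2.19, 2.07, 2.37, 2.16 and 1.78 from the lab end to the Antp end, with the fifth again the lowest. Broad regions that scored at or above that made up 35.2% of all its broad regions, and the share among shorter regions was 1.39%.

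When regions under 10 kb apart were joined, the whole complex became 1 chain in every list, and it was the longest chain of the major arms. The chain was 395 kb long in replicate 1 (2486197 to 2881201, 16 regions) and 394 kb long in replicate 2 (2486404 to 2880823, 18 regions). Called sequence took up 92.5% and 93.9% of the span, and the chain also ranked 1 by called bases in both lists. The next longest chain was the Bithorax complex, the other Hox cluster of the fly, with 331 kb in both replicates. The third was 218 kb on 2L in replicate 1 and 233 kb on X in replicate 2. A chain from the complex ranked 1 in all 3 lists for joining distances of 2, 10 and 20 kb, although at 2 kb it held only the fourth and the fifth broad region with the pieces beside them. At 1 kb it ranked 11 in replicate 1 and 1 in the other lists. At 5 kb the complex split into 2 chains in replicate 1, where its longer part of 232 kb came second to the Bithorax complex, and at 50 kb the chain ranked 2, 3 and 3 in replicate 1, replicate 2 and the series list.

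**Figure D4:**
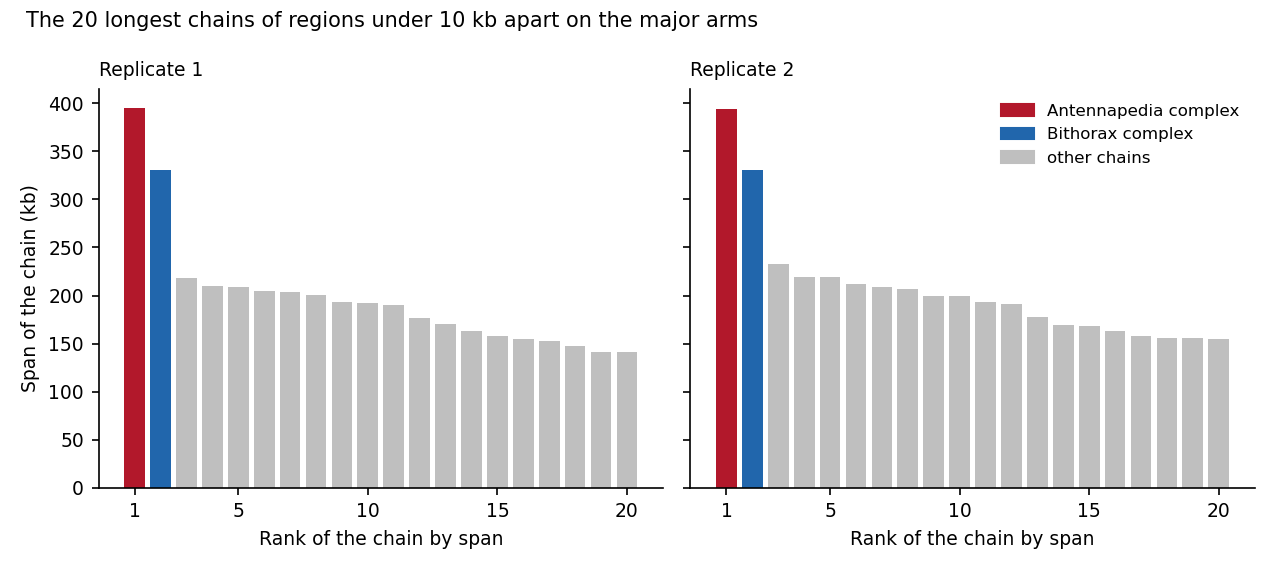
Span in kb of the 20 longest chains of regions under 10 kb apart on the major arms, ranked from longest to shortest, for replicate 1 and replicate 2. Red is the Antennapedia complex (395 and 394 kb), blue the Bithorax complex (331 kb in both) and grey all other chains, of which the longest spans 218 kb in replicate 1 and 233 kb in replicate 2.

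The Bithorax complex, which holds Ubx, abd-A and Abd-B for the posterior thorax and abdomen, was set beside it in a window of the same length, 3R:12450000-12850000. That window was placed from general knowledge of where the complex lies and not from an annotation. The Antennapedia window had 5 broad regions and the Bithorax window 3 in each replicate. The share called was 91.7% ± 0.89 in the Antennapedia window and 83.3% ± 0.16 in the Bithorax window (SD, n = 2 each). The difference was 8.43 percentage points, with an exact two-sided permutation p of 0.333, the smallest that 2 against 2 values allow. That test took the values as independent, although both windows were read in the same 2 libraries, so it cannot decide the question. Within replicate 1 the shares were 91.1% against 83.2%, and within replicate 2 they were 92.3% against 83.4%. The difference in share depends on how far each complex fills its window. The chain itself was more fragmented in the Antennapedia complex, with 16 and 18 regions called over 92.5% and 93.9% of its span, against 4 and 3 regions over 98.5% and 98.7% in the Bithorax complex. Base-weighted scores were 1.87 and 1.94 in the Antennapedia window and 2.12 and 2.23 in the Bithorax window, lower for Antennapedia in both replicates. Of the called bases, 96.2% were shared by the replicates in the Antennapedia window and 98.3% in the Bithorax window.

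The surroundings of the complex differed on its 2 sides. On the lab side the nearest called region lay 930 kb away in both replicates, ending at 1556037 in replicate 1 and at 1556237 in replicate 2. This uncalled stretch ranked 7 of 1464 between neighbouring regions of the major arms in replicate 1 and 6 of 1433 in replicate 2, where the medians were 3.74 kb and 3.52 kb. The series list placed 3 regions of 1007 to 1285 bp in it, which summed to 3.30 kb. They scored from 0.36 to 3.20, the upper value being above the score of every region of the complex in that list. In the table of Release 6, agt precedes lab.

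On the Antp side the fifth broad region was followed by a break of 2754 bp in replicate 1 and 3128 bp in replicate 2. A short region came next, from 2878243 to 2881201 (score 0.46) in replicate 1 and from 2878601 to 2880823 (score 0.58) in replicate 2, which crosses the end of the window. Just outside, 3 further short regions of the series list ran from 2882274 to 2888957, with scores of 0.21 to 0.28, and neither replicate called them. The next broad region began 75.8 kb beyond the chain in replicate 1 (2957005 to 2970050, score 1.02) and 76.2 kb beyond it in replicate 2 (2957051 to 2969112, score 1.07). A single region of 1625 bp lay before it in replicate 1 alone (2939853 to 2941477, score 0.69). The complex was thus set off from the next broad region by a far shorter distance on the Antp side than on the lab side, in both replicates.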

How the data were processed

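The data are 3 deposited lists of H3K27me3-enriched regions, 1 per ChIP library and 1 for the whole series. Each row holds a start and an end, 1-based in GFF3 form per the file headers, and a score. The deposited score is the authors' value; for its scale, the caller and the threshold, nothing is stated in the labels or headers. Bowtie 0.12.7 is named in the submitters' processing notes. The labels name an input for each ChIP list; the inputs were not analysed here. The labels and headers also leave out how the series list was made. The build was taken from the 14 sequence names and lengths in the headers.

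From the lists, called bases, overlaps of at least 1 bp, breaks, chains and ranks were computed with Python 3.11.15, numpy 2.4.6 and matplotlib 3.10.9. On 100 pairs of simulated lists, tested against base-by-base masks, the code gave the known overlaps, called bases and breaks in 100. With 2 replicates, means carry an SD, and the exact permutation test used cannot pass 0.05. The labels do not say whether the replicates came from separate embryo collections. All regions of at least 10 kb in the window are named, others by counts and ranges, with examples chosen after their values were seen. The members, limits and tests were chosen with earlier results of these data known. Alternatives were a median score minimum, merging, a wider window, stricter overlap and, added after seeing the data, other joining distances.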

Additional observations from a re-analysis of the deposited data

How the results depend on the processing

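When a list was limited to its higher-scoring regions, from its median score upwards, the mean over replicates was 7 regions and 6 breaks (17 and 16 as reported), 85.8% of the window called, a shared fraction of 97.5%, a base-weighted score of 2.00, 6 regions met by the other replicate (16.5 as reported), 6 replicate 1 breaks that overlapped one of replicate 2 (14 as reported) and a median of 81.0 bp between matching ends (90.0 bp as reported for one-to-one pairs). With regions under 1 kb apart merged, these were 10.5 regions, 9.5 breaks, 10.5 regions met, a shared fraction of 96.3% and 81.5 bp. Of the 11 replicate 1 breaks left by merging, 7 overlapped one of replicate 2, against 14 of 15 as reported. With the median score minimum it was 6 of 6. No background was computed for either setting. Both settings leave fewer regions by construction. Widening the window by 100 kb on each side, into sequence with few calls, gave 63.5% called and a shared fraction of 95.6%, and the series list gave 94.7% called. Asking for 50% of both breaks left 9 that overlapped, and asking for 50% of both regions left 13 regions met on average. Leaving out 1 replicate gave 16 to 18 regions, 15 to 17 breaks, 91.1% to 92.3% called and a base-weighted score of 1.87 to 1.94. Joining regions under 1, 2 or 5 kb apart, chosen after seeing the data, gave chains of 182 kb, 226 kb and 313 kb on average, against 395 kb at 10 kb. With both replicates kept, 7 values under planned settings, the 13 regions met among them, moved by less than the spread between replicates, or stayed within 1.5 times for counts. The chains at 20 and 50 kb did so too. Over all alternatives, those leaving out 1 replicate included, 17 values were classed as the same and 21 as moved. Values with no spread between replicates, such as the shared fraction, were classed as moved even after small changes. No paired analysis was possible because only the ChIP libraries have region lists here, and their inputs, numbered alike, have none. What read depth limits could not be measured without counts.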
